A study of Glycine max with 6 samples.

Results

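Phosphate enters plant cells and is released from organic compounds through a small number of gene families, and 3 of them are described here in soybean (Glycine max) leaves. The members are the genes of the deposited table whose NCBI gene number has a symbol or synonym made of PAP, PT, PHT1 or SPX and a number, with or without the prefix Gm and with or without a trailing letter. This names 33 of 41759 genes. They are 8 SPX genes, 12 PHT1 phosphate transporter genes, 7 purple acid phosphatase (PAP) genes and 6 genes that carry a PT number without a PHT1 name. A further 6 genes with such names in the reference gene table (SPX4, PHT1-12, PHT1-13, PT03, PT10D and PT11C) were not analysed here.

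Expression was measured as FPKM (fragments scaled to gene length and library size) in 3 leaf libraries of each of 2 soybean genotypes, HN44 and SN14, which the series describes as differing in water use efficiency. Per the labels' protocols, total RNA was taken with Trizol, and plants stood in a field in Harbin under natural conditions, though that text names its plants by a code that is neither genotype. The labels give no plant age, soil phosphate level, treatment or transgene and do not say which genotype uses water more efficiently. They are silent on whether each library had its own plant, so the p-values reflect library spread that could be technical. In whole leaves, fewer cells of a type and less RNA per cell cannot be told apart.

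In plants, SPX proteins bind inositol pyrophosphates when phosphate is plentiful and then hold back PHR transcription factors, and when phosphate is scarce the PHR factors are freed and turn on phosphate starvation genes, a circuit worked out mainly in Arabidopsis and rice. Several SPX genes are themselves targets of PHR factors, so their transcripts are used as a readout of phosphate status. PHT1 proteins are plasma membrane symporters that bring phosphate into the cell with protons. Purple acid phosphatases are metal-containing enzymes that split phosphate from organic esters, and some of them act on phytate, the storage form of phosphate in seeds.

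The PT names join unrelated enzymes. Of the 6 genes with a PT number outside PHT1, G2DT and G4DT bear the symbols of the glycinol prenyltransferases of glyceollin synthesis, a soybean defence compound. PT01 has the synonym G2DT-2, and PT11A the synonym IDT1, for an isoflavone prenyltransferase. PT10B and PT11B carry numbers of the same prenyltransferase series. These 6 are therefore described apart from the phosphate transporters.

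Across the series, HN44-3 lay between HN44-1 and HN44-2, or equalled one, in 99.3% of 1992 genes that had a mean of at least 5 FPKM and differed over 2-fold between HN44-1 and HN44-2. The corresponding share for an SN14 library set between its 2 partners was at most 67.9%. A library that lies between its partners narrows the spread of its group, so if HN44-3 is not a sample of its own, HN44 has 2 libraries and the errors and p-values from 6 libraries are too small. Whether it is was not tested, and the tests and tallies are therefore also given without HN44-3. The leaf label was checked on 10 genes for Rubisco, Rubisco activase, light-harvesting and photosystem proteins, whose summed level lay between 46958 and 86524 FPKM in every library. Of 12 root and nodule markers 3 had a row, and of 9 seed markers 1 had, and among these NOD33 was the 1 that reached 1 FPKM in a library, with a highest value of 8.23. The expression filter, at least 1 FPKM in at least 3 libraries, kept 27140 genes and 23 of the 33 members.

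**Figure D1:**
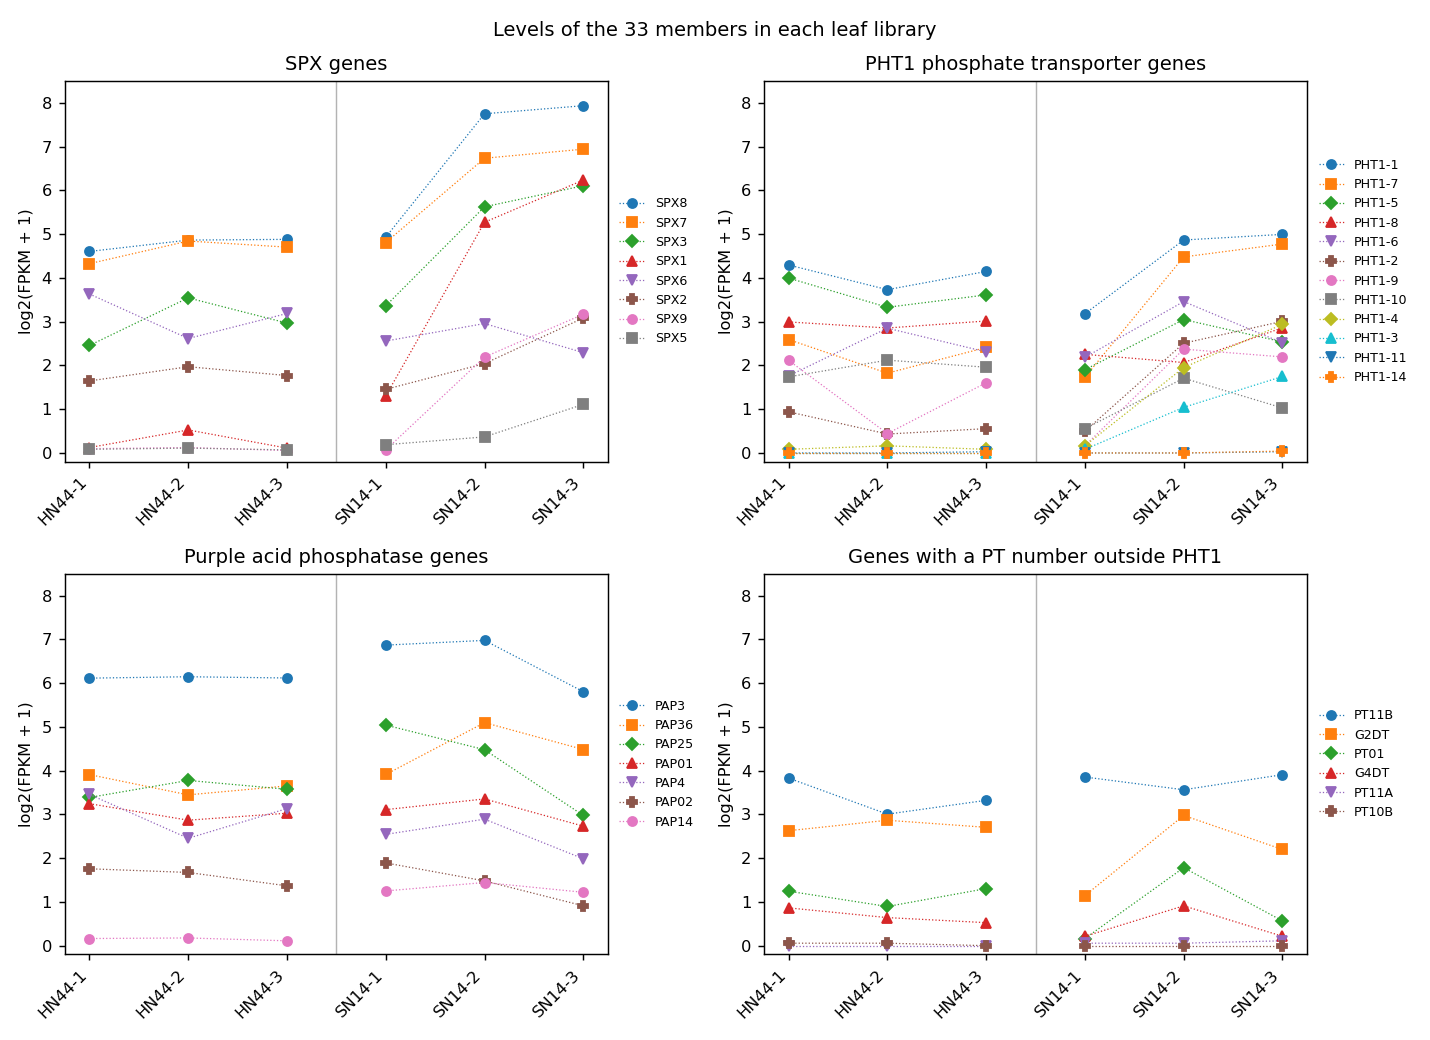
Level of each of the 33 members, as log2(FPKM + 1), in the 3 HN44 and 3 SN14 libraries, in 4 panels by family. Each symbol is 1 gene in 1 library, and dotted lines only join the points of a gene, since libraries of a genotype have no order. SPX8 stands at 244 FPKM in SN14-3 and at 29.5 in SN14-1, while PAP14 stands apart between the genotypes.

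The SPX genes were the members with the widest range. Summed over the 8 genes, they stood at 60.7, 75.2 and 71.1 FPKM in the HN44 libraries and at 74.1 in SN14-1, but at 420 in SN14-2 and 529 in SN14-3. SN14-1 thus lay within the HN44 range, while the other SN14 libraries lay far above it. The genotype comparison has to be read with this in mind, since it averages SN14 libraries that differ more from each other than SN14-1 differs from HN44.

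SPX8 (chromosome 17, 9074513 to 9077106) was the most abundant. It stood at 23.4, 28.1 and 28.5 FPKM in the HN44 libraries and at 29.5, 215 and 244 in SN14-1, SN14-2 and SN14-3. The genotypes did not overlap, but SN14-1 exceeded the highest HN44 library by little. SPX7 (chromosome 13, 28161929 to 28164624) showed the same order of SN14 libraries, at 19.1, 27.7 and 25.1 FPKM in HN44 and at 27.04, 106 and 122 in SN14. SPX3 (chromosome 4, 29849723 to 29853230) stood at 4.49, 10.7 and 6.83 FPKM in HN44 and at 9.28, 48.4 and 67.9 in SN14. For SPX7 and SPX3 the genotypes overlapped through SN14-1.

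SPX1 (chromosome 1, 45776706 to 45780971) had the steepest difference among the tested members. It stood at 0.09, 0.44 and 0.08 FPKM in HN44 and at 1.47, 37.7 and 74.4 in SN14, so that SN14-3 held 50.6 times the SN14-1 level. It passed the expression filter through SN14 alone. SPX9 (chromosome 20, 37036738 to 37038686) stood at 0.07, 0.09 and 0.04 FPKM in HN44 and at 0.05, 3.57 and 8.0 in SN14. Here SN14-1 was as low as HN44, and with 2 libraries at 1 FPKM the gene was not tested.

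Among the remaining SPX genes, SPX5 had the same order of SN14 libraries at a low level, and SPX6 and SPX2 differed less. SPX6 (chromosome 13, 15887916 to 15891234) stood at 11.4, 5.13 and 8.11 FPKM in HN44 and at 4.89, 6.77 and 3.90 in SN14, overlapping between genotypes. SPX2 (chromosome 4, 5635072 to 5637533) stood at 2.13, 2.92 and 2.41 FPKM in HN44 and at 1.74, 3.12 and 7.48 in SN14, where only SN14-3 exceeded the HN44 values by much. SPX5 (chromosome 10, 48683283 to 48686029) was the lowest SPX gene, at most 0.08 FPKM in HN44 and 0.14, 0.29 and 1.16 in SN14, without overlap. Its SN14-3 level was 8.29 times that of SN14-1, and it was not tested.

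In the comparison of HN44 with SN14, none of the 6 tested SPX genes was past the threshold, an adjusted p of 0.05 in limma with Benjamini-Hochberg adjustment over all 27140 genes. Of all tested genes 1025, or 3.78%, passed, 2.33% as higher and 1.44% as lower in HN44. Without adjustment, 4 of 6 had a limma p under 0.05 as lower in HN44 and none as higher, beside 8.59% and 18.7% of all tested genes, 27.3% in all. The 4 were SPX1, SPX3, SPX7 and SPX8. SPX1 passed the filter through SN14 alone, so high SN14 values were a condition of its being counted. Fold changes here are HN44 minus SN14 on the log2(FPKM + 1) scale, which understates the change of low genes. SPX1 had a fold change of -4.02 ± 1.16 (SE; limma adjusted p = 0.0952), SPX8 of -2.09 ± 0.76 (adjusted p = 0.14), SPX3 of -2.04 ± 0.70 (adjusted p = 0.129) and SPX7 of -1.54 ± 0.55 (adjusted p = 0.136). SPX2 stood at -0.40 ± 0.40 (SE) and SPX6 at 0.54 ± 0.30. Without HN44-3, 2 of 6 had an unadjusted limma p under 0.05, beside 14.1% of all tested genes in either direction. None passed there, beside 0.553% of all tested genes, with a limma adjusted p between 0.311 and 0.36 for SPX1, SPX3, SPX7 and SPX8.

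A single library decided these calls. Without SN14-1, SPX1, SPX3, SPX7 and SPX8 passed in limma, 4 of 6 beside 2.93% of all tested genes that passed in either direction and 1.44% that passed as lower in HN44. Their fold changes were then -5.50 ± 0.32 (SE; adjusted p = 0.00183) for SPX1, -3.06 ± 0.18 (adjusted p = 0.00183) for SPX8, -2.88 ± 0.35 (adjusted p = 0.0165) for SPX3 and -2.21 ± 0.21 (adjusted p = 0.00806) for SPX7. Over the alternatives tried the limma adjusted p ran from 0.00183 to 0.429 for SPX1, from 0.00183 to 0.47 for SPX8, from 0.0165 to 0.466 for SPX3 and from 0.00806 to 0.465 for SPX7. The fit without SN14-1 compares HN44, with HN44-3 in it, with 2 SN14 libraries that are high for these genes, and it says nothing of the genotype as SN14-1 represents it. SPX1 passed the filter through SN14 alone, with SN14-1 as 1 of the 3 libraries it needed. The filter over 6 libraries was kept in the fit without SN14-1, so SPX1 is counted there only because of that. The median fold change of the 6 tested SPX genes was -1.79 with all libraries and -2.55 without SN14-1, where the median over all tested genes was 0.17 and 0.19.

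**Figure D2:**
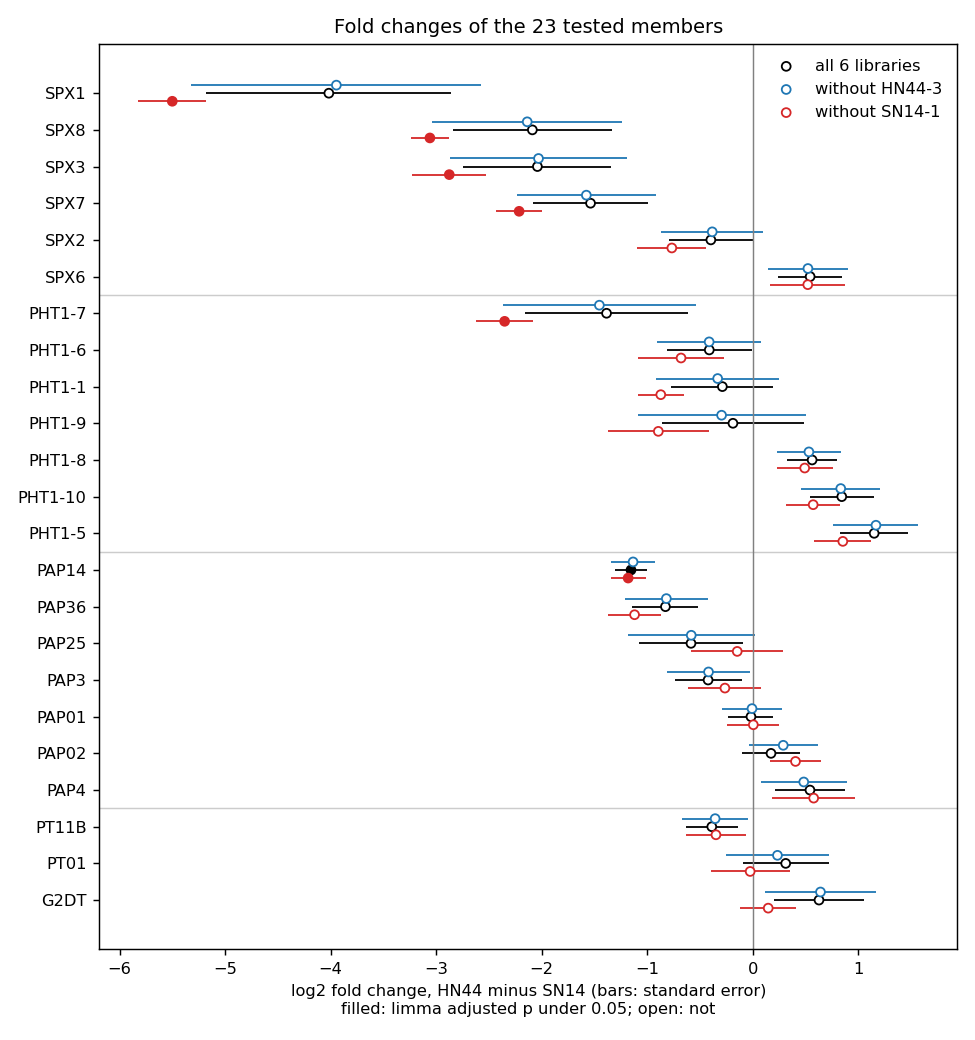
Fold change of the 23 tested members, HN44 minus SN14 on the log2(FPKM + 1) scale, with bars of 1 standard error, for all 6 libraries (black), without HN44-3 (blue) and without SN14-1 (red). Filled points passed a limma adjusted p of 0.05: PAP14 with all libraries, and SPX1, SPX3, SPX7, SPX8, PHT1-7 and PAP14 without SN14-1.

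The PHT1 transporter genes differed among themselves in how the libraries were ordered. Summed over 12 genes they stood at 54.7, 40.5 and 48.8 FPKM in the HN44 libraries, and at 21.6, 85.05 and 93.8 in SN14-1, SN14-2 and SN14-3. SN14-1 was thus the lowest of all libraries, below HN44 as well.

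PHT1-1 (chromosome 10, 41946208 to 41950275) was the most abundant transporter gene, at 18.7, 12.3 and 16.7 FPKM in HN44 and at 8.07, 28.2 and 30.9 in SN14. The HN44 libraries lay between SN14-1 and the other SN14 libraries. PHT1-7 (chromosome 19, 42521387 to 42524376) stood at 5.03, 2.54 and 4.32 FPKM in HN44 and at 2.32, 21.3 and 26.4 in SN14, again with SN14-1 low. PHT1-9 (chromosome 7, 39866741 to 39872357) varied in both genotypes, at 3.34, 0.36 and 2.04 FPKM in HN44 and at 0.12, 4.18 and 3.58 in SN14.

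A set of lower transporter genes was almost silent outside SN14-2 and SN14-3. PHT1-2 (chromosome 3, 37771343 to 37774667) stood at 0.92, 0.35 and 0.47 FPKM in HN44 and at 0.41, 4.69 and 7.05 in SN14. PHT1-4 (chromosome 10, 3233118 to 3236325) stood at 0.06, 0.12 and 0.06 FPKM in HN44 and at 0.12, 2.87 and 6.67 in SN14. PHT1-3 (chromosome 10, 662574 to 665464) was listed at 0 in the HN44 libraries and stood at 0.06, 1.06 and 2.36 FPKM in SN14. With 2 libraries at 1 FPKM these 3 genes did not enter the test, and in the fit with no filter their limma adjusted p was 0.268 for PHT1-2, 0.227 for PHT1-4 and 0.219 for PHT1-3, where 1.87% of all genes passed.

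In a neighbouring pair of transporter genes on chromosome 20, every HN44 library stood above every SN14 library, though neither gene passed the test. PHT1-5 (44090964 to 44094866) stood at 14.97, 9.05 and 11.2 FPKM in HN44 and at 2.74, 7.28 and 4.81 in SN14, and its groups did not overlap. PHT1-10 (44099938 to 44103785) stood at 2.34, 3.35 and 2.89 FPKM in HN44 and at 0.47, 2.27 and 1.04 in SN14, and did not overlap either. Among all tested genes 23.3% did not overlap with HN44 higher. The pair lies 5.07 kb apart on the same strand with no other row of the table between them. Within SN14 both were lowest in SN14-1, as PHT1-1 was.

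PHT1-8 (chromosome 20, 2184562 to 2202311) was the steadiest transporter gene, at 6.97, 6.24 and 7.09 FPKM in HN44 and at 3.77, 3.19 and 6.27 in SN14, where SN14-3 reached the HN44 range. PHT1-6 (chromosome 10, 41935669 to 41939269), 6.94 kb from PHT1-1, stood at 2.39, 6.22 and 3.96 FPKM in HN44 and at 3.55, 10.01 and 4.72 in SN14, and its libraries overlapped. PHT1-11 and PHT1-14 were at 0.03 FPKM or less in every library. PHT1-11 has the synonym GmPT7, a transporter gene known in soybean from mycorrhizal roots. The PHT1 genes resemble each other, and reads of neighbouring copies may be divided between them.

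No PHT1 gene among the 7 tested was past the limma threshold, and 3 of 7 had an unadjusted p under 0.05, all higher in HN44, beside 18.7% of all tested genes in that direction. That count depended on the scaling: it was 1 of 7 beside 12.1% after median-of-ratios scaling and 1 of 7 beside 13.3% after quantile normalization. The fold change was 1.15 ± 0.32 (SE; limma adjusted p = 0.091) for PHT1-5, 0.84 ± 0.30 (adjusted p = 0.138) for PHT1-10 and 0.56 ± 0.23 (adjusted p = 0.179) for PHT1-8. It was -1.39 ± 0.77 (adjusted p = 0.281) for PHT1-7, and -2.35 ± 0.27 (adjusted p = 0.0146) without SN14-1. PHT1-7 was the only PHT1 gene past the threshold there, 1 of 7 beside 2.93% of all tested genes in either direction and 1.44% as lower in HN44. SN14-1 was the low SN14 library for PHT1-7, so leaving it out favours its passing. Its limma adjusted p ranged from 0.0146 to 0.579 over the alternatives tried. For PHT1-1, PHT1-6 and PHT1-9 the limma adjusted p was 0.721, 0.522 and 0.873. Without HN44-3 none of the 7 passed, beside 0.553% of all tested genes, and 1 of 7 had an unadjusted limma p under 0.05, higher in HN44, beside 9.08% in that direction. The median of the 7 was -0.19 beside 0.17 for all tested genes, and the members on each side of 0 numbered 3 and 4.

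Within SN14 the differences between libraries were set beside those of all genes. On the log2(FPKM + 1) scale, 4 of 6 tested SPX genes and 6 of 7 tested PHT1 genes were at least 2-fold higher in SN14-2 than in SN14-1, where 5.13% of all tested genes were. In SN14-3 against SN14-1 the counts were 5 of 6 and 3 of 7, beside 5.59%. Of the 3 tested genes with a PT number outside PHT1, 2 were 2-fold higher in SN14-2 than in SN14-1, and 1 was in SN14-3. Of the 7 phosphatase genes, 1 was 2-fold higher in SN14-2 than in SN14-1, and 2 were 2-fold lower in SN14-3. The SPX counts include SPX1, which passed the filter through SN14 alone. No tested SPX or PHT1 gene was 2-fold lower in either pair, beside 6.01% in SN14-2 and 7.58% in SN14-3. Between SN14-3 and SN14-2 the count was 1 of 6 SPX genes, SPX2, and none of 7 PHT1 genes higher, beside 4.15%. Of the phosphatase genes, 2 of 7 were 2-fold lower in SN14-3 than in SN14-2, beside 4.52%. In HN44-2 against HN44-1, 1 SPX gene and 1 PHT1 gene were 2-fold higher and 1 of each was 2-fold lower, beside 4.77% and 4.92%. The median difference of SN14-3 from SN14-1 was 2.44 for SPX, 0.64 for PHT1 and -0.56 for PAP genes, and -0.10 for all tested genes. These compare single libraries, so they have no test, and the first pairs share SN14-1.

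A further description was chosen after these values were seen. SPX1, SPX3, SPX7, SPX8 and PHT1-7 were at least 2-fold higher in both SN14-2 and SN14-3 than in each of the other 4 libraries, 5 of the 23 tested members, and 107 of all 27140 tested genes, or 0.394%, did the same. The untested SPX9, PHT1-2 and PHT1-4 also met it. SPX1 passed the filter through SN14 alone, so high SN14 values were a condition of its being counted. Read depth is unknown. Among low values, the commonest ratio was 0 on the log2 scale between SN14-1 and SN14-2, in 330 of 3293 genes, and between SN14-1 and SN14-3, in 143 of 3185. Ties among rounded low values favour a ratio of 0, so this does not show equal depth. What set these libraries apart was not tested.

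**Figure D3:**
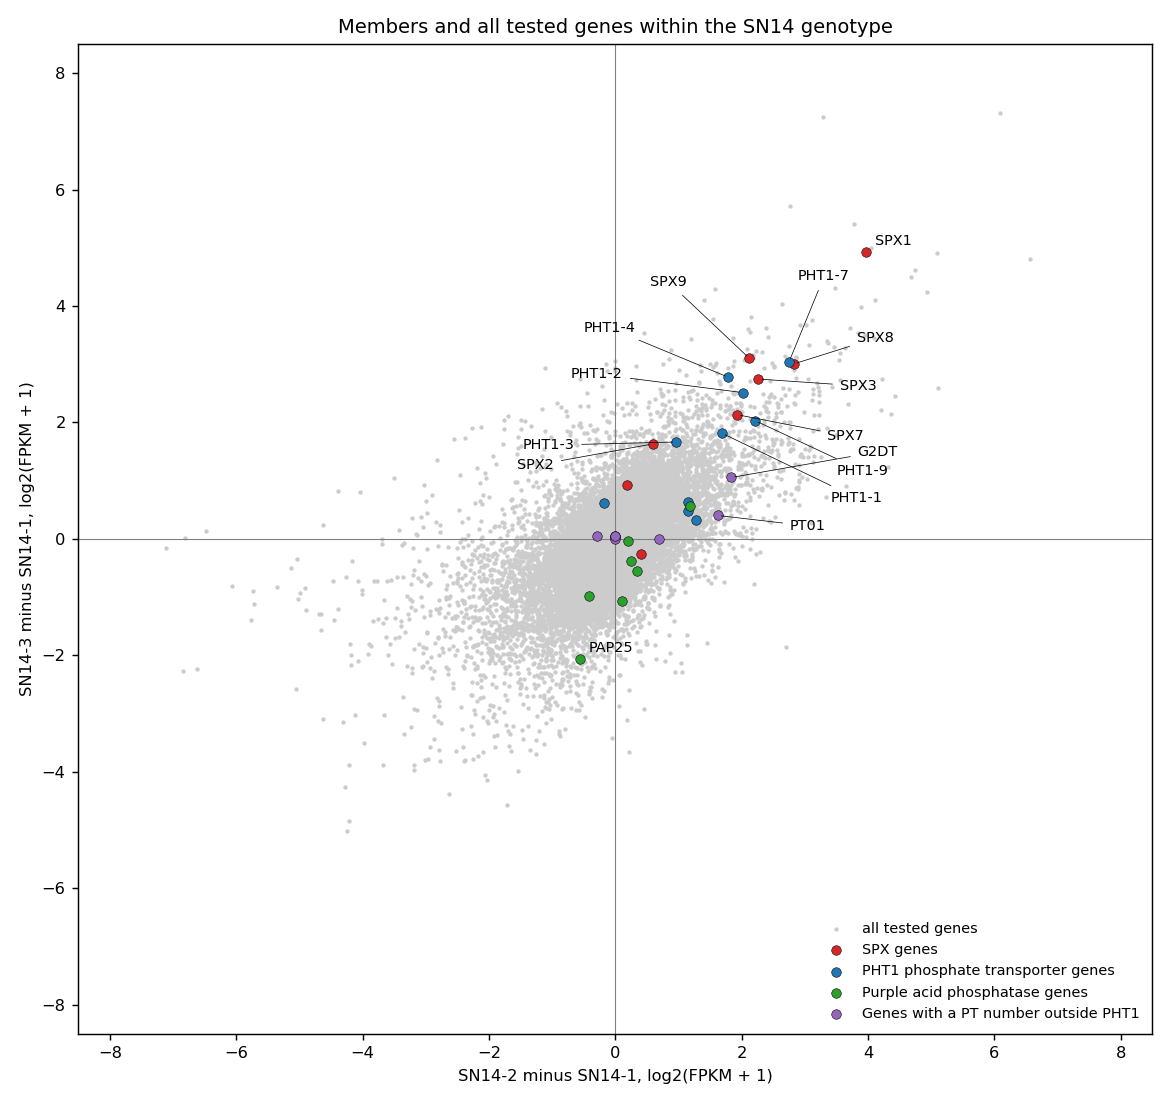
Difference of SN14-2 from SN14-1 (horizontal axis) and of SN14-3 from SN14-1 (vertical axis) on the log2(FPKM + 1) scale, for all tested genes (grey) and the 33 members (coloured by family). Both axes share SN14-1, so the grey cloud leans along the diagonal by construction. SPX1, SPX8, SPX3 and PHT1-7 lie at the upper right, while PAP25 lies below 0 on both axes.

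As a sum, the purple acid phosphatase genes did not follow the SPX pattern. Summed over 7 genes, they stood at 113, 106 and 108 FPKM in the HN44 libraries and at 178, 199 and 93.9 in SN14-1, SN14-2 and SN14-3, so that SN14-3, the library with the highest SPX level, was the lowest for phosphatases. Most of the sum was PAP3, at 125 FPKM in SN14-2 and 54.9 in SN14-3. PAP36 differed from the sum, at 33.2 FPKM in SN14-2 and 21.4 in SN14-3, above every other library. None of the 7 differed over 5-fold between SN14 libraries, where 5 of 8 SPX genes and 5 of 10 PHT1 genes with at least 1 FPKM in a SN14 library did, beside 9.95% of all such genes. Of the genes with a PT number outside PHT1, 2 of 3 did so as well, G2DT and PT01, so wide SN14 ranges were not particular to SPX and PHT1 genes. Among members with at least 1 FPKM in a HN44 library, PHT1-9 was the 1 that did so between HN44 libraries, beside 4.35%. In SN14-1, SPX5, SPX9, PHT1-2, PHT1-3, PHT1-4, PHT1-9 and PT01 were under 1 FPKM, so their 5-fold ranges in SN14 rest on low values. They entered the SN14 count through SN14-2 or SN14-3.

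PAP14 was the 1 member past the threshold. This gene (chromosome 9, 45317415 to 45321068, minus strand), known in soybean for a phosphatase linked to the use of external phytate, stood at 0.12, 0.13 and 0.08 FPKM in the HN44 libraries and at 1.38, 1.72 and 1.33 in SN14-1, SN14-2 and SN14-3. The genotypes were far apart and SN14-1 lay with the other SN14 libraries. The mean was 0.125 FPKM (SD 0.0071, n = 2) over HN44-1 and HN44-2 and 1.48 FPKM (SD 0.212, n = 3) over SN14. PAP14 fell by 1.15 ± 0.15 (SE) on the log2(FPKM + 1) scale in HN44 (limma adjusted p = 0.0126). With a pseudocount of 0.1 the PAP14 fold change was -2.91 ± 0.38 (SE). The call depended on which HN44 libraries entered the fit. Without HN44-3 the limma adjusted p of PAP14 was 0.108, without HN44-1 it was 0.0596, and over the alternatives tried it ran from 0.00591 to 0.181. PAP14 passed the filter through SN14 alone, so that a difference was a condition of being tested, and 1 of 7 phosphatase genes past the threshold is to be read beside 1.44% of all genes that passed as lower in HN44.

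PAP3 (chromosome 17, 8568124 to 8572964), a soybean phosphatase gene described from salt stress, was the most abundant member of the family. It stood at 68.3, 69.8 and 68.4 FPKM in HN44 and at 116, 125 and 54.9 in SN14. The HN44 libraries were nearly equal and lay between SN14-3 and the other SN14 libraries. PAP36 (chromosome 12, 554154 to 557229) stood at 14.03, 9.90 and 11.6 FPKM in HN44 and at 14.06, 33.2 and 21.4 in SN14. Its groups were separated only by the margin between HN44-1 and SN14-1, and 10.5% of all tested genes did not overlap with SN14 higher. PAP25 (chromosome 13, 27748272 to 27752711), with the synonym phytase, stood at 9.46, 12.7 and 10.9 FPKM in HN44 and at 31.9, 21.3 and 6.87 in SN14, with SN14-3 below every HN44 library.

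PAP01 and PAP4 stood near each other in level per length. PAP01 (chromosome 8, 43472398 to 43476098), with the synonym PHYTASE, ranged from 6.30 to 8.48 FPKM in HN44 and from 5.64 to 9.22 in SN14. PAP4 (chromosome 2, 46970632 to 46973151), known in soybean for a phosphatase active on phytate, ranged from 4.48 to 9.98 FPKM in HN44 and from 2.96 to 6.42 in SN14. PAP02 (chromosome 18, 1830902 to 1835156) stayed between 0.88 and 2.71 FPKM in the 6 libraries. These 3 genes overlapped between the genotypes.

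Apart from PAP14, the fold changes of the phosphatase genes missed the threshold. PAP36 stood at -0.83 ± 0.31 (SE; limma adjusted p = 0.152), PAP25 at -0.59 ± 0.50 (adjusted p = 0.462) and PAP3 at -0.42 ± 0.32 (adjusted p = 0.407). PAP4 stood at 0.54 ± 0.33 (SE), PAP02 at 0.17 ± 0.27 and PAP01 at -0.02 ± 0.21. Without adjustment, 2 of 7 had a limma p under 0.05, both lower in HN44, beside 8.59% of all tested genes in that direction and 27.3% in either. The 2 were PAP36 and PAP14, and PAP14 was counted only because it passed the filter through SN14 alone. Without HN44-3 none of the 7 passed and 1 of 7, PAP14, had an unadjusted p under 0.05, beside 14.1% in either direction, while PAP36 stood at -0.82 ± 0.39 (SE; limma adjusted p = 0.391). The median was -0.42, beside 0.17 for all tested genes.

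Of the 6 genes with prenyltransferase PT names, PT11B (chromosome 11, 30278185 to 30291429) was the most abundant and the steadiest in SN14, at 13.2, 7.03 and 9.0 FPKM in HN44 and at 13.5, 10.8 and 14.01 in SN14. G2DT (chromosome 20, 47557644 to 47565259), which adds the prenyl group in one branch of glyceollin synthesis, stood at 5.18, 6.29 and 5.52 FPKM in HN44 and at 1.21, 6.87 and 3.59 in SN14. PT01 (chromosome 1, 45619205 to 45625877) stood at 1.37, 0.86 and 1.47 FPKM in HN44 and at 0.12, 2.44 and 0.48 in SN14. G2DT and PT01 were highest in SN14-2 and lowest in SN14-1, so SN14-3 did not stand with SN14-2 as it did for the SPX genes. G4DT ranged from 0.16 to 0.88 FPKM over the 6 libraries, and PT11A and PT10B were at 0.08 FPKM or less. None of the 3 tested genes passed in limma, and none had an unadjusted p under 0.05. Fold changes were 0.63 ± 0.43 (SE) for G2DT, 0.31 ± 0.41 for PT01 and -0.39 ± 0.24 for PT11B. Without HN44-3 they were 0.64 ± 0.52 (SE) for G2DT, 0.23 ± 0.49 for PT01 and -0.36 ± 0.31 for PT11B, and again none passed or had an unadjusted p under 0.05.

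Over all 23 tested members, 1 passed in limma with 6 libraries, beside 3.78% of all tested genes, and none without HN44-3, beside 0.553%. The groups did not overlap with SN14 higher for 4 of 23, or 17.4%, which were SPX1, SPX8, PAP14 and PAP36, beside 10.5% of all tested genes. SPX1 and PAP14 passed the filter through SN14 alone, and without them the count was 2 of 21, or 9.52%. They did not overlap with HN44 higher for 2 of 23, or 8.70%, which were PHT1-5 and PHT1-10, beside 23.3%. Without HN44-3 the same members did not overlap, beside 11.1% of all tested genes with SN14 higher and 24.3% with HN44 higher.

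Some members of different families lie within 1 Mb of each other in the genome. How many such pairs are expected was not worked out. PAP3 and SPX8 lie 502 kb apart on chromosome 17, with 41 rows of the table between them. PAP25 and SPX7 lie 409 kb apart on chromosome 13, with 37 rows between them. In both places the phosphatase gene was lower in SN14-3 than in SN14-1 while the SPX gene was higher, with SN14-3 to SN14-1 ratios of 0.474 for PAP3 and 8.26 for SPX8, and of 0.215 for PAP25 and 4.51 for SPX7. The SN14-2 to SN14-1 ratios were 1.08 for PAP3 and 7.27 for SPX8, and 0.667 for PAP25 and 3.90 for SPX7, so PAP3 was not lower there. PT01 and SPX1 lie 151 kb apart on chromosome 1, and both were higher in SN14-3 than in SN14-1, with ratios of 4.0 and 50.6. No member overlapped another row of the table. Coordinates are those of the deposited table. Its build is not given in the sources.

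Other genes of phosphate signalling and use were read from a list of symbols, which matched 62 rows and 46 tested genes. Of these, 1 was higher and 2 were lower in HN44 in limma with 6 libraries, 3 of 46 beside 3.78%, and none passed without HN44-3. PHR8, 1 of 31 tested genes named for the PHR class of transcription factors, stood at 7.46, 4.55 and 5.40 FPKM in HN44 and at 1.4, 0.78 and 1.73 in SN14. It rose by 1.56 ± 0.24 (SE) in HN44 (limma adjusted p = 0.0225, and 0.127 without HN44-3). The genotypes did not overlap, beside 23.3% of all tested genes that did not with HN44 higher. SN14-1 lay with the other SN14 libraries.

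The other 2 genes that passed encode or act on PEP carboxylase, which fixes bicarbonate into oxaloacetate and whose kinase PPCK activates it by phosphorylation. Gmppc2 (LOC100820574) stood at 16.97, 18.6 and 17.9 FPKM in HN44 and at 34.2, 49.3 and 36.98 in SN14, and fell by 1.11 ± 0.19 (SE) in HN44 (limma adjusted p = 0.029, and 0.189 without HN44-3). PPCK4 stood at 0.33, 0.17 and 0.48 FPKM in HN44 and at 1.60, 2.19 and 1.29 in SN14, and fell by 1.01 ± 0.19 (SE; limma adjusted p = 0.0409, and 0.171 without HN44-3). PPCK4 passed the filter through SN14 alone. Over the alternatives tried the limma adjusted p ran from 0.0232 to 0.267 for PHR8, from 0.0268 to 0.251 for Gmppc2 and from 0.0313 to 0.238 for PPCK4. All 3 SN14 libraries of Gmppc2 and PPCK4 exceeded the HN44 libraries, beside 10.5% of all tested genes that did the same.

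ACP1, PPCK3 and PHR25 shared the library pattern of the SPX genes by the description given above, 3 of 46 tested genes of the list beside 0.394%. ACP1, a soybean acid phosphatase gene associated with phosphorus efficiency, stood at 17.3, 36.9 and 27.5 FPKM in HN44 and at 23.1, 308 and 118 in SN14. PPCK3 stood at 45.8, 35.2 and 42.8 FPKM in HN44 and at 28.3, 127 and 103 in SN14. PHR25 stood at 28.4, 23.4 and 25.2 FPKM in HN44 and at 50.4, 111 and 180 in SN14, the highest PHR level in each SN14 library. PPCK2 stood at 37.2, 22.99 and 33.9 FPKM in HN44 and at 11.9, 77.8 and 57.4 in SN14. Among the SN14 libraries it was lowest in SN14-1 and highest in SN14-2, as ACP1 and PPCK3 were. With 6 libraries the limma adjusted p was 0.219 for ACP1, 0.356 for PPCK3 and 0.0606 for PHR25. Without SN14-1, 5 of 46 passed, beside 2.93% of all tested genes, and these were ACP1, PPCK3, PHR25, Gmppc2 and PHR8. Of the 5, 1 was higher and 4 were lower in HN44, beside 1.44% of all tested genes as lower. ACP1, PPCK3 and PHR25 had been picked for high SN14-2 and SN14-3 values, so leaving out SN14-1 favours their passing. That fit is no separate support for them.

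Many PHR genes were higher in SN14-3 than in SN14-1. In SN14-3, 16 of 31 tested PHR genes were at least 2-fold above SN14-1 on the log2(FPKM + 1) scale and none was 2-fold below, beside 5.59% and 7.58% of all tested genes. In SN14-2 the count above SN14-1 was 2 of 31, beside 5.13%. In SN14-3 against SN14-2 it was 6 of 31, beside 4.15%. The median PHR difference from SN14-1 was 1.07 in SN14-3 and 0.28 in SN14-2, whereas the median of the SPX genes was 2.44 and 2.10. These are single libraries, and the differences were not tested.

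**Figure D4:**
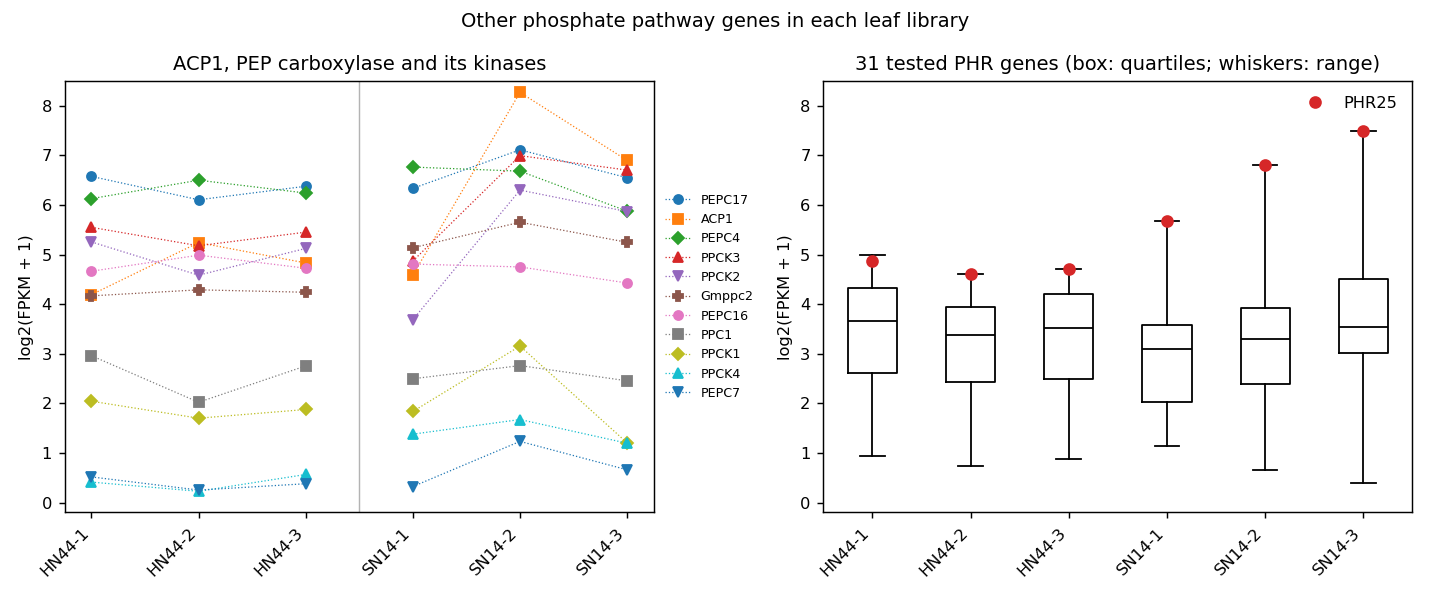
Left, level of ACP1, the PEP carboxylase genes and the PEP carboxylase kinase (PPCK) genes as log2(FPKM + 1) in each library, where dotted lines only join the points of a gene. Right, the 31 tested PHR genes in each library (box, quartiles and median; whiskers, lowest and highest gene), with PHR25 in red at 180 FPKM in SN14-3. ACP1 reaches 308 FPKM in SN14-2.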

How the data were processed

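The deposited table holds FPKM values per gene and library, made by the authors. Per the submitters' processing notes the tools included RSEM 1.2.12, DESeq2 1.4.5, Bowtie2 2.2.5 and HISAT2 2.0.4. Their roles and order are not given. FPKM is scaled for depth and length, so read totals and counting errors are unknown. Low values gave commonest ratios between libraries within 0.15 of 0 on the log2 scale, which ties among rounded values favour, so equal depth is not shown.

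Symbols, synonyms and chromosome numbers came from a RefSeq table of Glycine max, which matched 37544 of 38907 gene numbers in the table. No sequences or coordinates were taken from it.

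limma 3.58.1 with a variance trend (R 4.3.3) was run on log2(FPKM + 1), all 6 libraries, no covariate, over the 27140 genes that reached 1 FPKM in 3 or more libraries, with Benjamini-Hochberg adjustment and a threshold of 0.05. The code was tested on simulated data. Members and lists were chosen with earlier results of these data known. Named with values are members past the threshold, those without overlap and with a 2-fold ratio of means and at least 1 FPKM in the higher genotype, the 3 most abundant of a family and those over 5-fold apart within a genotype. Other members are named to account for all. Of the other pathway genes, those past the threshold or with the smallest p follow the rule, and ACP1, PPCK2, PPCK3 and PHR25 were chosen after their values were seen. Alternatives were the pseudocount, filter, scaling, replicate block, robust variances and leaving out each library.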

Additional observations from a re-analysis of the deposited data

How the results depend on the processing

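Leaving out each library in turn gave 150 to 961 genes past the threshold, against 1025, with 276 without HN44-1, 150 without HN44-3 and 478 without SN14-3. It gave 0 to 4 SPX genes, 0 to 1 PHT1 gene, 0 to 1 phosphatase gene and 0 to 5 other pathway genes, against 0, 0, 1 and 3. Family medians ranged from -0.68 to 0.28 for PHT1, -0.80 to -0.15 for PAP and -0.30 to 0.13 for the other pathway genes. Fold changes crossed 0 in SPX2 (-0.77 to 0.0472), PT01 (-0.0258 to 0.78), PAP01 (-0.18 to 0.13), PHT1-9 (-0.90 to 0.28), PHT1-1 (-0.87 to 0.0349) and PAP02 (-0.0865 to 0.40). Without HN44-3, applying the filter again gave 15 genes, 0 phosphatase and 0 other pathway genes. With no filter and without HN44-3, an alternative chosen after seeing the data, 111 genes, 0 phosphatase and 0 other pathway genes passed. Median-of-ratios scaling moved the median of the other pathway genes to -0.28, since it lowers the median of all tested genes from 0.17 to 0.02. It also turned the share of calls from 633 higher and 392 lower in HN44 to 458 and 504. The cause of the other changes was not tested.

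Same-numbered libraries did not deviate together: the correlations of their deviations from the genotype means were -0.22, -0.44 and 0.03. The replicate block gave 174 genes, 0 phosphatase genes and 0 other pathway genes past the threshold. PAP14 kept its direction under every alternative, with a limma adjusted p from 0.00591 to 0.181. Its genotypes do not overlap and are far apart, so the direction could hardly turn and is no added support. With no read counts, low members such as PAP14 and SPX9 carry an unknown counting error.
The promoter and protein descriptions planned for these genes were not run.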
